A study of Homo sapiens with 9 samples.

Results

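The genes described here are 42 listed genes of the response to low oxygen and of glycolysis, followed in PC3, a line of human prostate cancer cells derived from a bone metastasis. A probe set carrying the symbol alone was found for 40 of them, and 39 reached the detection filter and were tested among 14863 genes, each read by its brightest kept probe set. CA9, a carbonic anhydrase, and SLC16A3, a lactate exporter, had no probe set with their symbol alone, and the 3 probe sets of LOX, which cross-links collagen, stayed under the filter with log2 values between 3.24 and 4.12. RNA taken at 48 h was read on 9 arrays of the Affymetrix U133 Plus 2.0 type. The groups were PC3 cells co-cultured with osteoblasts of Sost knockout mice (OB SostKO, 2 arrays), with wild type osteoblasts and 100 ng/ml recombinant human DKK1 (OB WT + rhDKK1, 2 arrays), with wild type osteoblasts and 100 ng/ml recombinant human SOST (OB WT + rhSOST, 3 arrays), and PC3 cells grown without osteoblasts or added protein (untreated PC3, 2 arrays). The osteoblasts were primary cells from the calvaria of mouse pups and sat on culture inserts, so the 2 cell types shared medium. PC3 cells with wild type osteoblasts and no added protein were not analysed here, so the effect of the osteoblasts cannot be told apart from that of rhDKK1 or rhSOST, and no label names a change in oxygen.

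Cells sense oxygen through prolyl hydroxylases of the EGLN family, which mark the alpha subunits of the hypoxia-inducible factors (HIF1A, EPAS1) for destruction by VHL. When oxygen falls, the alpha subunits persist, pair with ARNT and bind a short motif in the control regions of genes for angiogenesis, glucose uptake, glycolysis, collagen modification and mitophagy. Control of HIF is thus largely at the protein, while the targets are read as RNA, and many tumor cells run glycolysis at a high rate also in the presence of oxygen.

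The promoters of 4 genes are shown, 2 of genes whose RNA changed in co-culture (ADM and PFKFB3) and 2 of classic hypoxia targets whose brightest probe set did not pass the test (LDHA and PGK1). Each is the RefSeq window around the start of the gene in GRCh38.p14, plus strand, 5′ to 3′, at chr11:10304823-10305122 for ADM, chr10:6144671-6144970 for PFKFB3 (1 of its 2 windows), chr11:18394313-18394612 for LDHA (1 of its 2 windows) and chrX:78103998-78104297 for PGK1. Capitals mark the core of the HIF motif, searched as ACGTG and GCGTG on both strands, with overlapping matches joined.
ADM: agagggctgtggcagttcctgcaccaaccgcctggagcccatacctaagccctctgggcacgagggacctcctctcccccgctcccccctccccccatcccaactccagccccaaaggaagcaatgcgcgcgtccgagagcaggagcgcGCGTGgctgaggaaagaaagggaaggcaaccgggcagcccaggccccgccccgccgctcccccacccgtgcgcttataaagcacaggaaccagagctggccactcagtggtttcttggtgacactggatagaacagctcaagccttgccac
PFKFB3: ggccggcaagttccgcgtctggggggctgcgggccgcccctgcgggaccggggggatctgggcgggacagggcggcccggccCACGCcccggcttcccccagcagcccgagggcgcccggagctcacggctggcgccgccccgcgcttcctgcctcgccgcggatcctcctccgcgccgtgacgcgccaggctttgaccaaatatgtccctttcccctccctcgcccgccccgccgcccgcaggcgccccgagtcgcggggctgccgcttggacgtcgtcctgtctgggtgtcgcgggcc
LDHA: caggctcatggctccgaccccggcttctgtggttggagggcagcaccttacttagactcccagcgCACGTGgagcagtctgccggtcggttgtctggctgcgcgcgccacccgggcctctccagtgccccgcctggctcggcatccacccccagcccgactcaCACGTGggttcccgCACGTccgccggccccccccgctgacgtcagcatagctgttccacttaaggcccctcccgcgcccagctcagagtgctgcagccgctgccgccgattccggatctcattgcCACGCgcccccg
PGK1: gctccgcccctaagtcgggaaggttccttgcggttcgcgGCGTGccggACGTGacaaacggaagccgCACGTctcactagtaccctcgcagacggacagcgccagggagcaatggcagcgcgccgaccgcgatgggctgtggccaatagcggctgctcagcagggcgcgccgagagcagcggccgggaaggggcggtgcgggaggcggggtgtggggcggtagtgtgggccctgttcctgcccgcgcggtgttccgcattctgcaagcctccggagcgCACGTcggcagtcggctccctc
ADM had 1 marked stretch, at -101 bases from its start, PFKFB3 had 1, at -168, and LDHA and PGK1 had 4 each. For LDHA and PFKFB3 this number is the highest of their 2 windows. Of the 42 listed genes 38 had a window in the table, and 35 of these 38 (92.1%) held a match in at least 1 window, against 14318 of 27305 genes in the whole table (52.4%). Counted by window, a match stood in 49 of 70 windows of the listed genes (70%), against 17012 of 35116 of all windows (48.4%). Genes differ in their number of windows, the base composition of the windows was not matched, and a match is a stretch of letters, not a site shown to be bound.

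The comparisons with untreated PC3 share the same 2 untreated arrays, and these differed from the co-culture arrays in their control signals. The spike-in poly-A controls averaged, in log2 units, 6.65 ± 0.28 (SD, n = 7) on the co-culture arrays and 11.32 ± 0.48 (SD, n = 2) on the untreated arrays, a difference of -4.67 (two-sided exact permutation p = 0.0278, which is the lowest that 36 splits of the arrays allow). The 3′ minus 5′ signal of ACTB was 1.38 ± 0.33 (SD, n = 7) against 0.69 ± 0.27 (SD, n = 2; exact p = 0.0278), while that of GAPDH, itself an enzyme of glycolysis, was 0.20 ± 0.10 against 0.19 ± 0.07 (exact p = 0.917). The GAPDH measure was highest, at 0.42, on OB WT + rhSOST array 3. Hybridization controls averaged 10.44 ± 0.12 (SD, n = 7) on the co-culture arrays and 11.01 ± 0.48 (SD, n = 2) on the untreated arrays, a difference of -0.57 (exact permutation p = 0.0278). These measures, other than that of GAPDH, move with every comparison against untreated PC3 given here, and their part in it was not tested. OB WT + rhSOST array 3 lay furthest from its group mean over all genes. The 5 epithelial markers KRT8, KRT18, KRT19, EPCAM and ITGA6 stood at or above the 95.2th percentile of every array. Of the osteoblast markers, COL1A1 had log2 values from 8.68 to 9.77 and RUNX2 from 8.62 to 9.16. IBSP (5.03 to 5.10) and ALPL (4.67 to 5.08) were kept but dim, and SP7 and COL1A2 stayed under the filter. Of the markers of androgen-responsive prostate, chosen as a set that PC3 lacks, KLK3 (6.71 to 7.34), TMPRSS2 (6.79 to 7.27) and KLK2 (4.90 to 5.52) were kept as well. None of the kept markers of these sets passed the test between the mean of the co-cultures and untreated PC3. The osteoblasts sat on inserts apart from the PC3 cells. Within the PC3 culture, fewer cells of a kind and less RNA per cell cannot be told apart.

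Co-culture with osteoblasts left most of the hypoxia and glycolysis genes close to their level in untreated PC3 cells. ADM, the vasodilator peptide adrenomedullin, was lower in each of the 3 co-cultures, by about 1.5-fold. The glucose transporter SLC2A3 was lower with OB SostKO and with OB WT + rhSOST, read by a dim probe set that entered the test through its untreated arrays. Taking the 3 co-cultures as an equally weighted mean, VEGFA was also lower, and PFKFB3 and MXI1 were higher. A member counted as changed at a limma adjusted p under 0.05 (Benjamini-Hochberg over all 14863 genes). With OB SostKO, 2 of 39 members fell and 0 rose (3.72% of all genes passed, 2.07% higher and 1.65% lower). With OB WT + rhDKK1, 1 fell and 0 rose (4.26% of all genes passed, 2.5% higher and 1.76% lower), and with OB WT + rhSOST, 2 fell and 0 rose (6.97% of all genes, 4.87% higher and 2.1% lower). For the mean of the co-cultures, 3 fell and 2 rose, 12.8% of the members, against 10.6% of all genes (6.55% higher and 4.03% lower). These shares lie near those of all genes and are no result about the genes as a group. SLC2A3 is 1 of the members that fell with OB SostKO, with OB WT + rhSOST and in the mean. The counts depended on single arrays. Without untreated array 1 they were 0 with OB SostKO, 0 with rhDKK1, 1 with rhSOST and 1 for the mean, where 0.431%, 0.659%, 1.17% and 1.77% of all genes passed, and the same counts came without untreated array 2, where 1.2%, 1.7%, 3.26% and 4.1% did. Without rhDKK1 array 1 or 2 the counts were 1, 0, 2 and 2, without OB SostKO array 1 they were 1, 2, 3 and 5, without OB SostKO array 2 they were 2, 2, 3 and 4, and without rhSOST array 2 they were 1, 1, 2 and 2, while the shares of all genes lay between 0.444% and 10.2% in these fits.

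The sizes of the changes were small. For OB SostKO the median log2 fold change of the 39 members was -0.04, for rhDKK1 0.00 and for rhSOST 0.03, against -0.01, -0.01 and 0.02 over all genes tested. The median size without its sign was 0.10, 0.08 and 0.06 for the members and 0.13, 0.13 and 0.12 for all genes. No member reached a 2-fold change at the probe set that stood for it. The 95% interval of the change lay within 1.5-fold in either direction for 30 members in OB SostKO, 30 in rhDKK1 and 35 in rhSOST, and within 2-fold for 38, 38 and 39. PKM, the pyruvate kinase of most tissues, was the member outside 2-fold in the first 2 comparisons. Of the 39 members, 11 (28.2%) had 7 co-culture arrays that did not overlap the 2 untreated arrays, 6 higher and 5 lower, against 26.7% of all genes (15.4% higher and 11.3% lower). In the map of all members by array, ADM, SLC2A3 and VEGFA are blue and PFKFB3 and MXI1 red on all 7 co-culture arrays, while PKM and GPI are darkest on OB SostKO array 1 and rhDKK1 array 2.

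**Figure D1:**
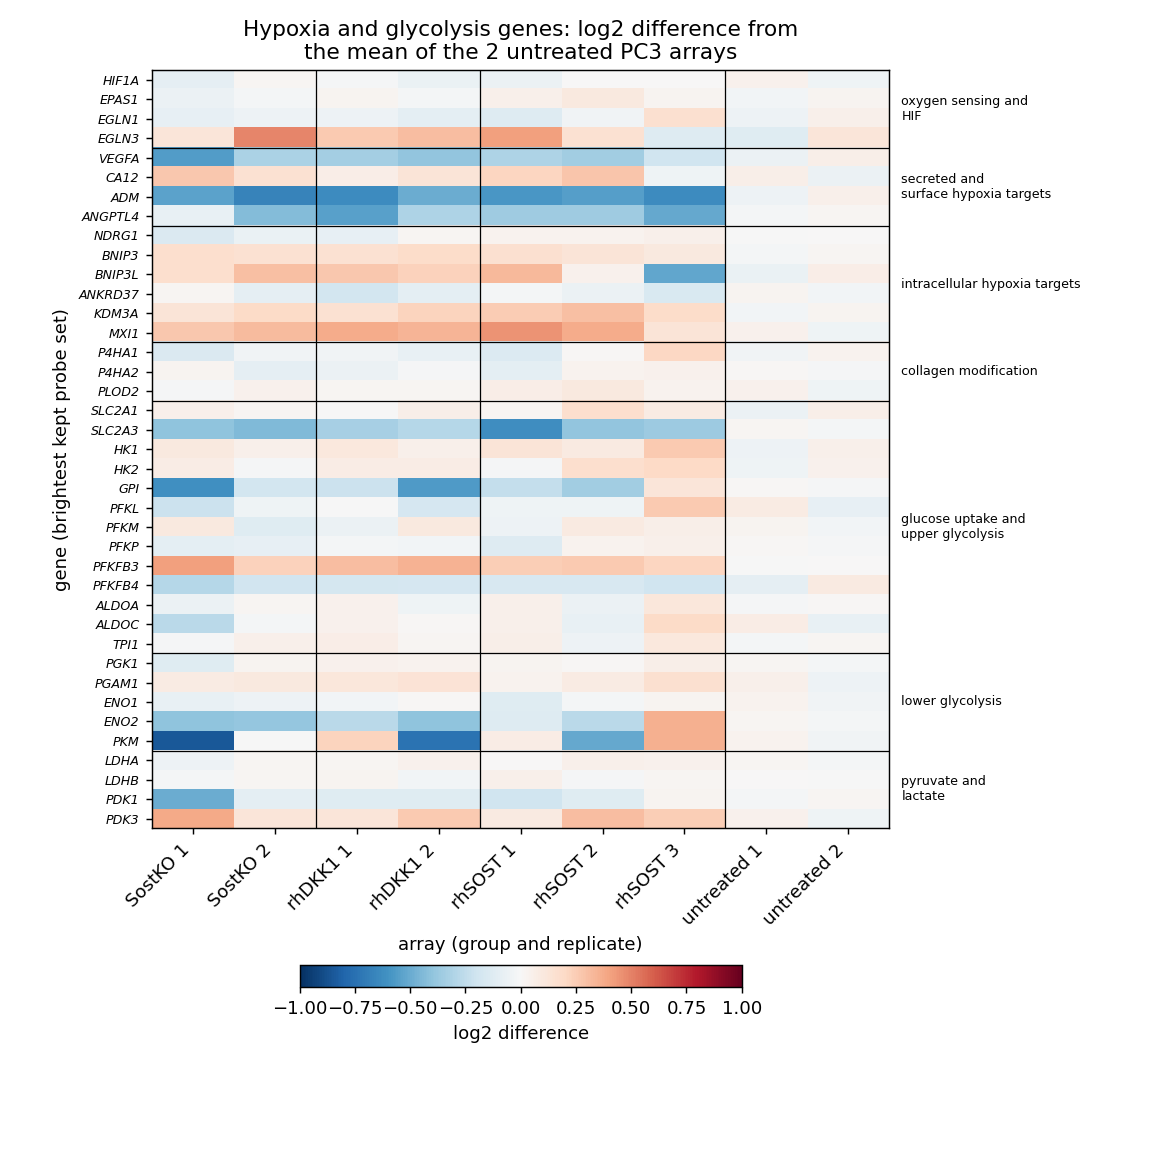
Log2 difference of each of the 39 tested members (rows, by role) from the mean of the 2 untreated PC3 arrays, on each of the 9 arrays (columns, by group and replicate); blue is lower and red is higher. ADM, with log2 fold changes of -0.60, -0.56 and -0.59 in the 3 co-cultures, is blue on all 7 co-culture arrays, and PKM is darkest on OB SostKO array 1 and rhDKK1 array 2.

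The oxygen sensors and the HIF subunits did not pass the test in any comparison. HIF1A, the hypoxia-inducible factor of most cells, had log2 values of 13.33 and 13.45 with OB SostKO, 13.41 and 13.36 with rhDKK1, 13.36, 13.43 and 13.43 with rhSOST, and 13.47 and 13.38 in untreated PC3. The values of all 4 groups overlapped, and the mean of the co-cultures differed from untreated PC3 by -0.03 (95% interval -0.17 to 0.11). EPAS1, which encodes HIF-2 alpha, lay between 11.89 and 12.05 on the co-culture arrays and at 11.92 and 11.98 on the untreated ones, a change of 0.01 (interval -0.12 to 0.14). Both transcripts were bright, HIF1A near the 99.5th percentile of every array. EGLN1, the main prolyl hydroxylase, changed by -0.05 (interval -0.23 to 0.14). EGLN3, a hydroxylase that is itself a HIF target, had 6.30 and 6.67 with OB SostKO, 6.44 and 6.48 with rhDKK1, 6.59, 6.33 and 6.05 with rhSOST, and 6.06 and 6.30 in untreated PC3. Its change of 0.24 had an interval from -0.08 to 0.57, wide because the arrays within a group differed.

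Among the secreted and surface targets, ADM showed the clearest change of all members. It had log2 values of 9.79 and 9.65 with OB SostKO, 9.70 and 9.83 with rhDKK1, 9.74, 9.77 and 9.70 with rhSOST, and 10.27 and 10.37 in untreated PC3. Every co-culture array lay below both untreated arrays, and the 3 co-cultures overlapped each other. The log2 fold changes were -0.60 (standard error 0.09, limma adjusted p = 0.0107), -0.56 (0.09, adjusted p = 0.0121) and -0.59 (0.08, adjusted p = 0.00506), and that of the mean of the co-cultures was -0.58 (0.07, 95% interval -0.74 to -0.43, adjusted p = 0.00209). Without untreated array 1 the adjusted p of ADM was 0.0591 with OB SostKO and 0.057 with rhDKK1, without untreated array 2 it was 0.0589 and 0.0623, and without rhDKK1 array 1 or 2 it was 0.113 and 0.063 for rhDKK1. Fitted on the 2 groups alone, it was 0.108 with OB SostKO and 0.0643 with rhDKK1. The calls for rhSOST and for the mean held in all 18 and 17 other limma fits run at this threshold. Their log2 fold changes lay from -0.64 to -0.54 and from -0.63 to -0.53. No member passed the methods' tests after Benjamini-Hochberg. At most 0.0606% of all genes did in any of the 3 co-cultures, so these tests could hardly have picked out a member.

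VEGFA, the main growth factor of blood vessels, had log2 values of 10.71 and 10.95 with OB SostKO, 10.92 and 10.87 with rhDKK1, 10.95, 10.91 and 11.06 with rhSOST, and 11.20 and 11.32 in untreated PC3. No co-culture array reached an untreated array. The mean of the co-cultures was -0.36 (standard error 0.08, adjusted p = 0.0257) from untreated PC3. The single co-cultures did not pass, with -0.43 for OB SostKO (adjusted p = 0.0525), -0.37 for rhDKK1 (adjusted p = 0.0797) and -0.29 for rhSOST (adjusted p = 0.102). Of 18 other limma fits, VEGFA passed in 6 with OB SostKO (adjusted p down to 0.023), in 3 with rhDKK1 (down to 0.0313) and in 2 with rhSOST (down to 0.0129). The other 3 kept VEGFA probe sets had mean changes of -0.72, -0.34 and -0.59, so all 4 had the same sign, and the last of them passed with rhSOST (-0.68, adjusted p = 0.0158 over all kept probe sets). Without untreated array 1 or 2 the adjusted p of the mean was 0.105 and 0.155, and without rhDKK1 array 1, rhDKK1 array 2 or rhSOST array 2 it was 0.0544, 0.0623 and 0.0516. ANGPTL4, a secreted inhibitor of lipoprotein lipase, had a mean change of -0.36 that did not pass (adjusted p = 0.0599), and CA12, a carbonic anhydrase of the cell surface, had 0.15 (interval -0.05 to 0.36). A second, dimmer ANGPTL4 probe set had -0.65 (adjusted p = 0.032 over all kept probe sets).

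**Figure D2:**
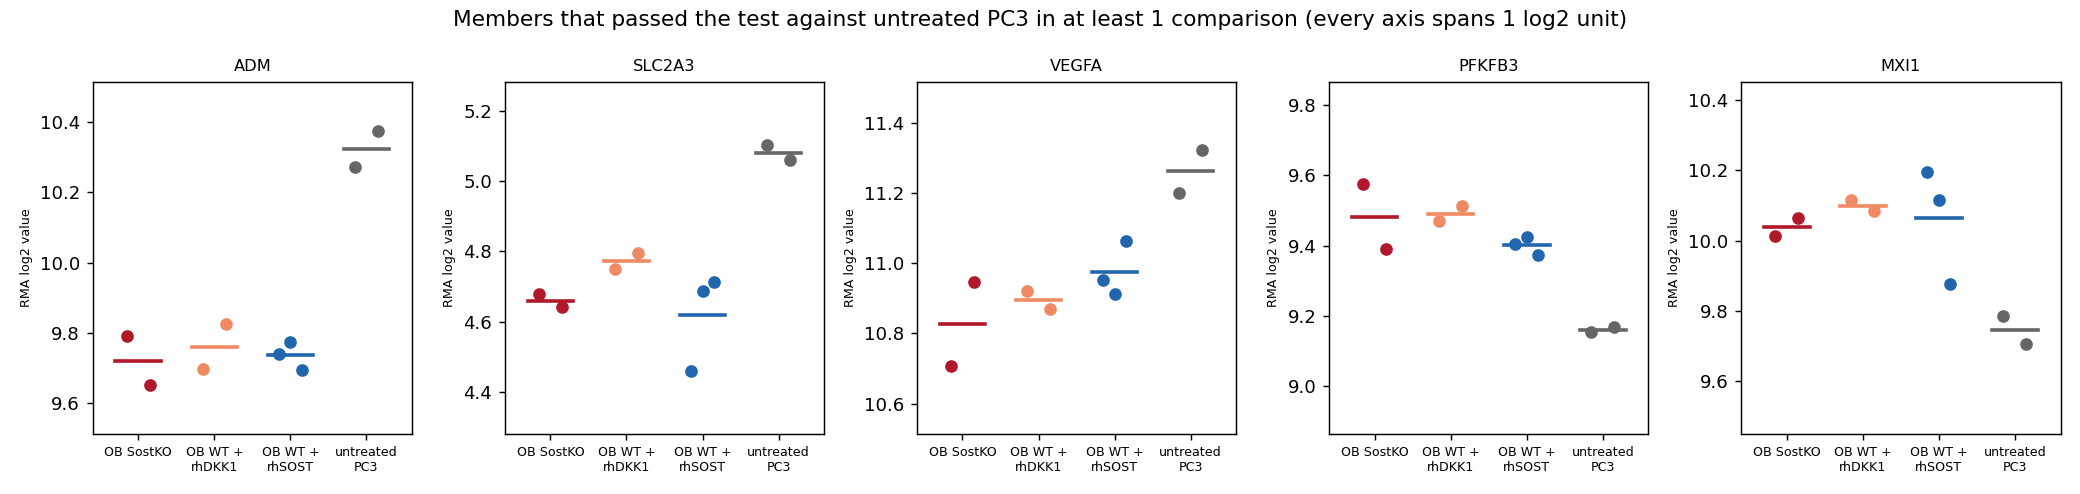
RMA log2 values of the 5 members that passed the test against untreated PC3 in at least 1 comparison; points are arrays, lines are group means, and each axis spans 1 log2 unit. All 7 co-culture arrays lie below both untreated arrays for ADM, SLC2A3 and VEGFA and above them for PFKFB3 and MXI1.

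Of the 6 intracellular targets, 1 passed. MXI1, an antagonist of MYC, had log2 values of 10.01 and 10.06 with OB SostKO, 10.12 and 10.08 with rhDKK1, 10.20, 10.12 and 9.88 with rhSOST, and 9.79 and 9.71 in untreated PC3. All 7 co-culture arrays were above both untreated arrays, rhSOST array 3 by the smallest margin. The mean change was 0.32 (standard error 0.09, adjusted p = 0.0463). This call was lost under 10 of 17 alternatives, among them every fit that left out an array other than rhSOST array 3, with adjusted p between 0.0575 and 0.212. KDM3A, a histone demethylase, and BNIP3, a mitophagy receptor, also had no overlap between co-culture and untreated arrays, with mean changes of 0.20 (adjusted p = 0.0737) and 0.15 (adjusted p = 0.115). A second kept BNIP3 probe set, 201848_s_at, did overlap, at 11.57 to 11.68 against 11.67 and 11.63, with a mean change of -0.02. BNIP3L, a related mitophagy receptor, ranged from 10.41 on rhSOST array 3 to 11.26 on rhSOST array 1 at its brightest probe set. Its second kept probe set, 221478_at, had 10.95 and 10.94 on these arrays, and a pooled SD within groups of 0.10 against 0.28. NDRG1, a differentiation-linked gene widely used as a hypoxia marker, and ANKRD37 had mean changes of -0.03 and -0.09. The 3 tested genes of collagen modification, the prolyl hydroxylase subunits P4HA1 and P4HA2 and the lysyl hydroxylase PLOD2, had mean changes between -0.04 and 0.03. A second kept PLOD2 probe set, 202619_s_at, had 12.09 and 12.03 with OB SostKO, 12.16 and 12.08 with rhDKK1, 12.02, 11.98 and 11.38 with rhSOST, and 11.19 and 11.74 in untreated PC3. Its changes of 0.59, 0.65 and 0.33 did not pass (with every kept probe set tested, adjusted p = 0.231, 0.194 and 0.437), and rhSOST array 3 lay between the untreated arrays.

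Glucose uptake and the first steps of glycolysis held the other calls. SLC2A3, the high-affinity glucose transporter GLUT3, had log2 values of 4.68 and 4.64 with OB SostKO, 4.75 and 4.79 with rhDKK1, 4.46, 4.69 and 4.71 with rhSOST, and 5.10 and 5.06 in untreated PC3. The untreated arrays stood above all 7 others, but the probe set was dim, between the 33.9th and the 43.4th percentile of its array, and of a type (suffix x_at) that can also match related transcripts, such as those of the close paralog SLC2A14. Its changes were -0.42 (adjusted p = 0.0493), -0.31 (adjusted p = 0.109) and -0.46 (adjusted p = 0.0184), with -0.40 (standard error 0.08, adjusted p = 0.0153) for the mean. The filter asked for 2 arrays at or above the 40th percentile, and the 2 untreated arrays were the brightest here. The highest co-culture value, 4.79, lay below the 4.82 reached by COL1A2, which stayed under the filter. SLC2A3 thus entered the test only through the group in which it was high, and its calls in the main fit depend on that selection. The OB SostKO call was lost under 14 of 17 alternatives. With no filter on low values its limma adjusted p was 0.0654, while the calls for rhSOST and for the mean held. Without untreated array 1 or 2 the adjusted p was 0.131 and 0.0702 with rhSOST and 0.132 and 0.0733 for the mean, and on the 2 groups alone it was 0.0584 with rhSOST. SLC2A1, the widespread transporter GLUT1, had a mean change of 0.05 (interval -0.10 to 0.20).

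PFKFB3 makes fructose 2,6-bisphosphate, the activator of phosphofructokinase. It had log2 values of 9.58 and 9.39 with OB SostKO, 9.47 and 9.51 with rhDKK1, 9.40, 9.43 and 9.37 with rhSOST, and 9.15 and 9.17 in untreated PC3. All 7 co-culture arrays lay above the untreated ones. The mean change was 0.30 (standard error 0.06, adjusted p = 0.0240), and the single co-cultures had 0.32, 0.33 and 0.24 with adjusted p = 0.0666, 0.0574 and 0.0903. Without untreated array 1 or 2 the adjusted p of the mean was 0.162 and 0.105, without rhDKK1 array 1 or 2 it was 0.0547 and 0.0625, and without rhSOST array 2 it was 0.0508. PFKFB4, its paralog, had -0.19 (adjusted p = 0.0976), the opposite sign, also without overlap. The hexokinases HK1 and HK2 had mean changes of 0.10 and 0.07, and the 3 phosphofructokinase subunits PFKL, PFKM and PFKP had -0.05, 0.01 and -0.04. The aldolases ALDOA and ALDOC had 0.01 and -0.02, and TPI1, which interconverts the triose phosphates, had 0.03. GPI, the isomerase after hexokinase, had -0.32 with an interval from -0.66 to 0.03.

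The lower steps of glycolysis and the fate of pyruvate showed no member past the threshold. PGK1, the first ATP-forming step, had log2 values of 13.68 and 13.82 with OB SostKO, 13.84 and 13.83 with rhDKK1, 13.82, 13.81 and 13.86 with rhSOST, and 13.82 and 13.78 in untreated PC3, a mean change of 0.01 (interval -0.13 to 0.15). LDHA, which turns pyruvate into lactate, lay between 14.14 and 14.24 on the co-culture arrays and at 14.21 and 14.17 on the untreated ones, a mean change of 0.02 (interval -0.11 to 0.14). LDHA was above the 99.9th percentile of every array and PGK1 near the 99.7th, and whether such bright probe sets were saturated was not tested. Of the other 5 kept PGK1 probe sets, 227068_at had -0.30 with OB SostKO (adjusted p = 0.19) and 1558365_at had a mean change of 0.49 (adjusted p = 0.199), over all kept probe sets. PGAM1, ENO1 and LDHB, a mutase, the common enolase and the other lactate dehydrogenase subunit, had 0.10, -0.04 and 0.01. PDK1, a pyruvate dehydrogenase kinase, had 9.70 and 10.10 with OB SostKO and 10.08 and 10.07 with rhDKK1. It had 10.00, 10.08 and 10.22 with rhSOST, and 10.18 and 10.22 in untreated PC3. Its mean change was -0.17 (interval -0.41 to 0.06), and OB SostKO array 1 was the low value.

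**Figure D3:**
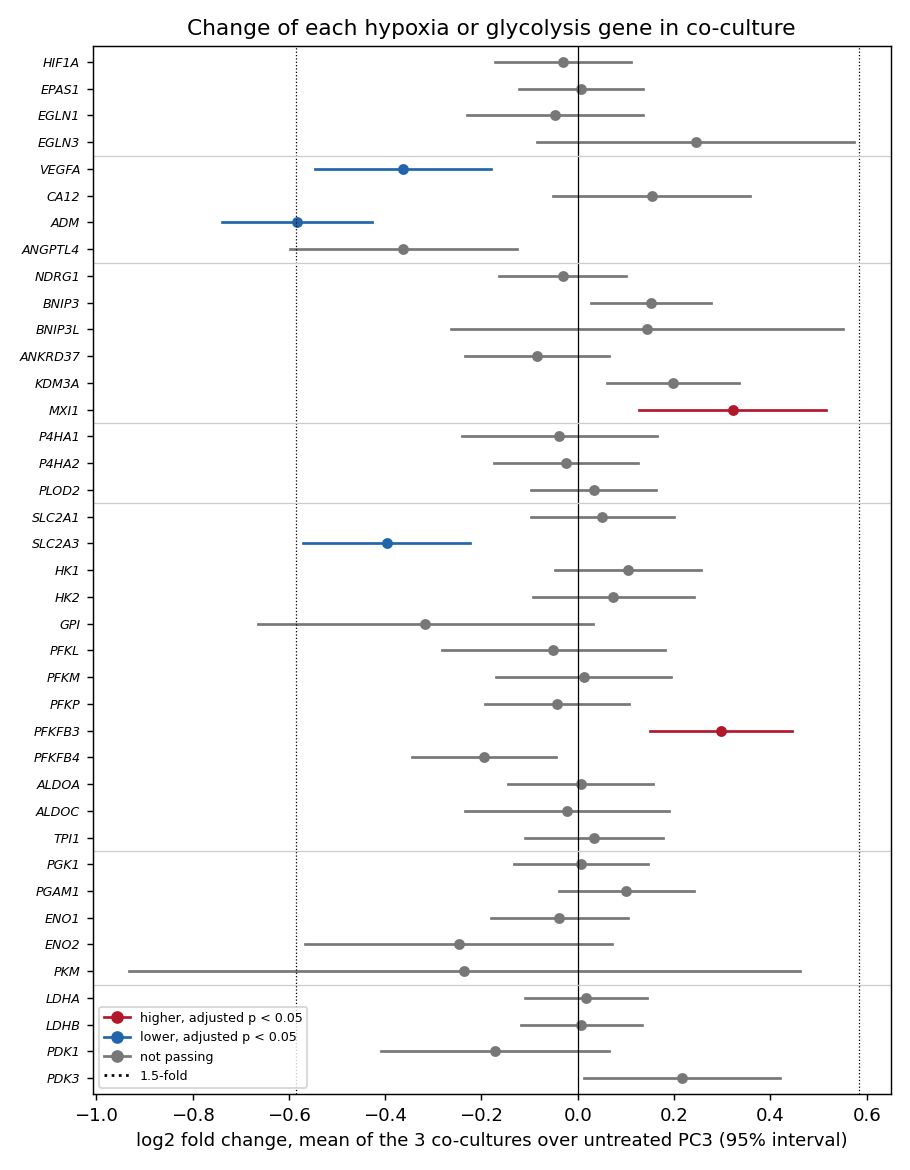
Log2 fold change of the mean of the 3 co-cultures over untreated PC3 for each tested member, with its 95% interval; red and blue mark the members with a limma adjusted p under 0.05 and the dotted lines a 1.5-fold change. For 35 of 39 members the interval stays within 1.5-fold, and PKM has the widest.

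PDK3, a second pyruvate dehydrogenase kinase and a gene of the study's supplementary list, depended on the probe set. The brightest of its 5 kept probe sets had log2 values of 9.51 and 9.25 with OB SostKO, 9.26 and 9.39 with rhDKK1, 9.22, 9.44 and 9.38 with rhSOST, and 9.17 and 9.09 in untreated PC3, a mean change of 0.22 (adjusted p = 0.159). Probe set 230085_at had 7.88 and 7.95 with OB SostKO, 8.00 and 7.90 with rhDKK1, 7.72, 7.62 and 6.53 with rhSOST, and 6.51 and 6.80 in untreated PC3. There rhSOST array 3 sat with the untreated arrays and apart from the other 6. The changes at this probe set were 1.26 (limma adjusted p = 0.116 over all kept probe sets), 1.30 (adjusted p = 0.105) and 0.64 (adjusted p = 0.302). The other 4 PDK3 probe sets had changes between 0.07 and 0.25 in the 3 co-cultures. Under the rule of an unadjusted p under 0.05 and a 2-fold change at any kept probe set, PDK3 and PGK1 (at its dimmest probe set, 217383_at, with 1.08 and 1.21, adjusted p = 0.147 and 0.112) were the 2 members counted with OB SostKO and with rhDKK1, against 1.32% and 1.13% of all genes. With rhSOST this rule counted 0 members (0.599% of all genes), and the adjusted test over all kept probe sets passed 4 member probe sets there, of ADM, SLC2A3, VEGFA and ENO1. Counted by gene at any kept probe set, 4 members passed with rhSOST, where 7.24% of all genes did. The ENO1 probe set 240258_at, dim with log2 values from 4.94 to 5.48, had 0.44 (adjusted p = 0.045), while the brightest ENO1 probe set had -0.04. The ENO1 probe set 217294_s_at had the opposite sign, -0.52, and did not pass (adjusted p = 0.103).

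**Figure D4:**
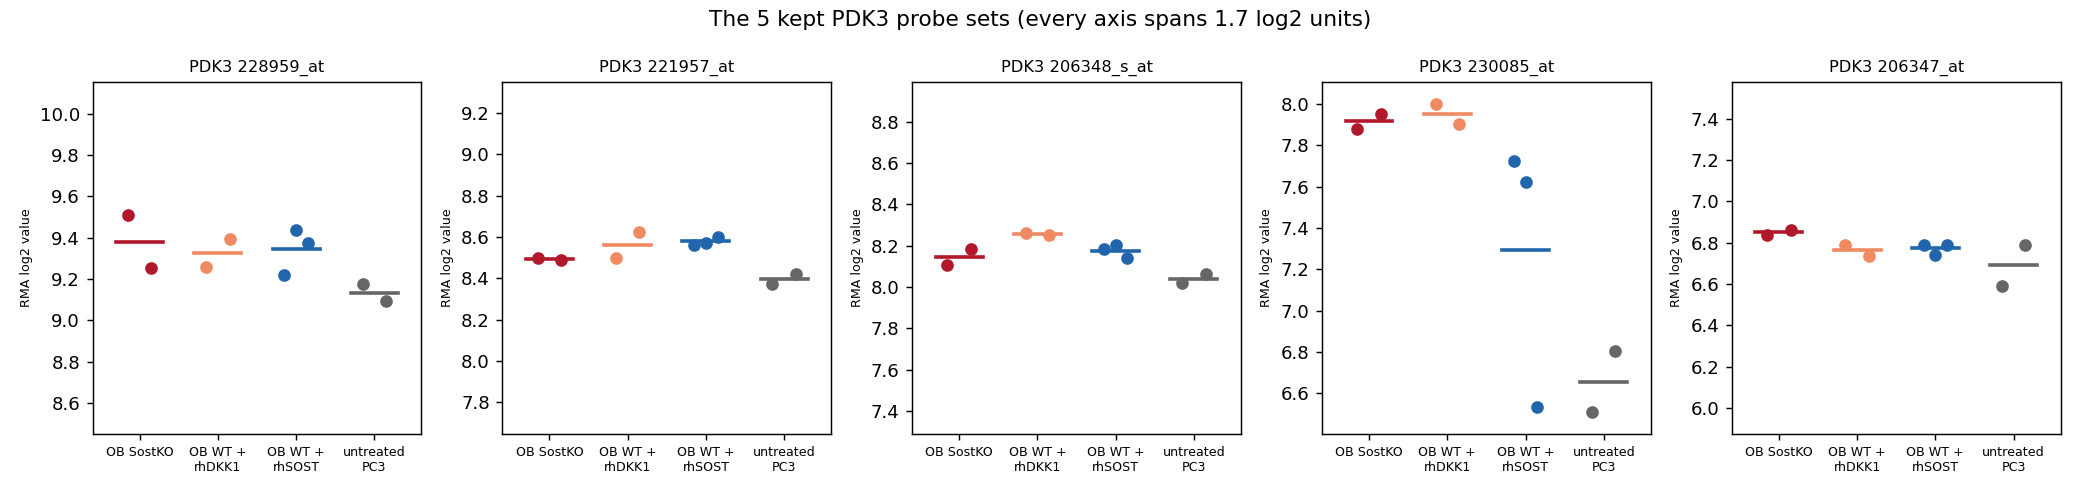
RMA log2 values of the 5 kept PDK3 probe sets; points are arrays, lines are group means, and each axis spans 1.7 log2 units. At 230085_at the OB SostKO and rhDKK1 arrays lie between 7.88 and 8.00 and rhSOST array 3 lies at 6.53, beside the untreated arrays at 6.51 and 6.80.

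Direct comparison of the co-cultures asks whether these genes differ between the 3 osteoblast conditions. No member passed for OB SostKO against OB WT + rhSOST, for OB WT + rhDKK1 against OB WT + rhSOST or for OB SostKO against OB WT + rhDKK1, and neither did any of the 14863 genes in limma's test (0% of all genes). At an unadjusted p under 0.05 these comparisons held 1, 0 and 0 members, against 4.08%, 2.57% and 0.828% of all genes. ENO2, the neuronal enolase, was the 1 member, with 8.85 and 8.87 with OB SostKO, 8.99 and 8.86 with rhDKK1, and 9.13, 8.99 and 9.62 with rhSOST, beside 9.28 and 9.24 in untreated PC3. Its difference between OB SostKO and OB WT + rhSOST was -0.38 (standard error 0.16, interval -0.74 to -0.02, limma adjusted p = 0.800), and rhSOST array 3 held the high value. Between rhDKK1 and rhSOST it was -0.32 (interval -0.68 to 0.04). The next smallest p belonged to NDRG1 for OB SostKO against rhSOST (-0.14, interval -0.29 to 0.01), to SLC2A3 for rhDKK1 against rhSOST (0.15, interval -0.05 to 0.35), and to ALDOC and PDK1 for OB SostKO against rhDKK1 (-0.17 each, intervals -0.43 to 0.09 and -0.47 to 0.12). The 95% interval lay within 1.5-fold for 35, 35 and 38 members.

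Some members varied more between replicate arrays than between conditions. PKM had log2 values of 10.90 and 11.74 with OB SostKO, 11.96 and 11.00 with rhDKK1, 11.82, 11.23 and 12.10 with rhSOST, and 11.78 and 11.71 in untreated PC3. Its low and high arrays fell within each co-culture, the pooled SD within groups was 0.49, and its change with OB SostKO had an interval from -1.29 to 0.44. A second, dimmer PKM probe set, 213700_s_at, had a pooled SD of 0.29. Its change with rhSOST was 0.55 and did not pass (limma adjusted p = 0.198 over all kept probe sets). GPI had its lowest values, 11.66 and 11.70, on the same arrays as PKM, OB SostKO array 1 and rhDKK1 array 2. These 2 were the lowest pair of the 7 co-culture arrays for 8 members (20.5%, against 16.3% of all genes). Most other members varied little, and the median within-group SD was 0.07 for the members and 0.11 for all genes, with 5 members (12.8%) above 0.2, against 10.2% of all genes. OB SostKO array 1 held the lowest of the 9 values for 15 of 39 members (38.5%, against 18.7% of all genes), and rhSOST array 3 the highest for 17 (43.6%, against 23.3%). Without rhSOST array 3 the count of changed members was 4 with OB SostKO (ENO2 and VEGFA joined), 2 with rhDKK1 (MXI1 joined), 3 with rhSOST (MXI1 joined) and 6 for the mean (ENO2 joined), all from the same fit without that array, in which 5.3%, 5.54%, 6.51% and 13.3% of all genes passed.

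**Figure D5:**
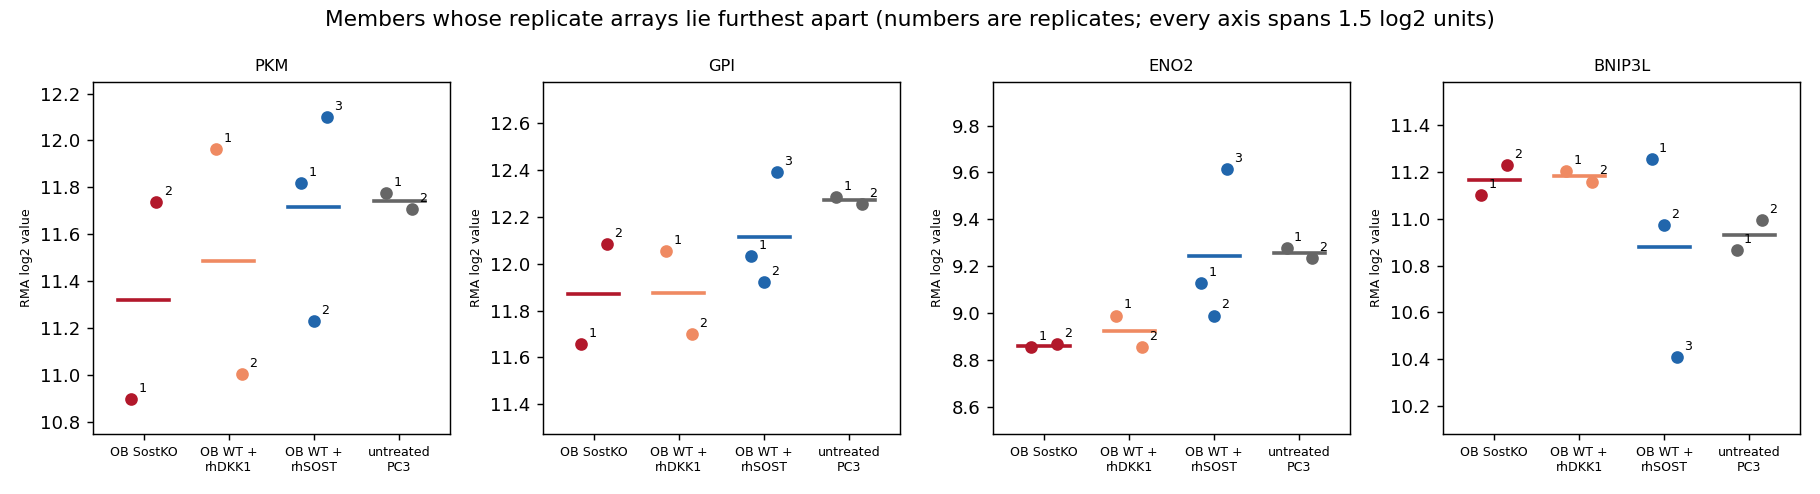
RMA log2 values of PKM, GPI, ENO2 and BNIP3L, each at its brightest kept probe set. Points are arrays labelled by replicate number, lines are group means, and each axis spans 1.5 log2 units. PKM spans 10.90 to 12.10 within the co-cultures, while its untreated arrays are 11.78 and 11.71.

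The further lists of genes from the same pathways are read against the shares of all genes that passed, 3.72% with OB SostKO, 4.26% with rhDKK1, 6.97% with rhSOST and 10.6% in the mean, and their counts are no result about the lists. Of 12 tested among 13 further HIF pathway genes, ARNT2, a HIF partner subunit, was higher with rhSOST (0.68, adjusted p = 0.0279) and in the mean (0.56, adjusted p = 0.0274), and 0 fell. Its values were 5.63 and 6.06 with OB SostKO, 5.87 and 5.87 with rhDKK1, 6.24, 5.96 and 5.91 with rhSOST, and 5.26 and 5.46 in untreated PC3. ARNT and VHL had mean changes of -0.02 and -0.08. Of 18 tested among 21 further hypoxia targets, BHLHE41, a repressor of transcription, was lower in the mean (-0.32, adjusted p = 0.0340) and 0 rose. Of 23 tested among 29 further genes of glycolysis and pyruvate use, PFKFB2, another isoform of the enzyme encoded by PFKFB3, was higher with rhDKK1 (0.46, adjusted p = 0.0479), with rhSOST (0.42, adjusted p = 0.0359) and in the mean (0.41, adjusted p = 0.0203). PFKFB2 had 8.76 and 8.72 with OB SostKO, 8.83 and 8.89 with rhDKK1, 8.70, 8.84 and 8.93 with rhSOST, and 8.27 and 8.52 in untreated PC3, with no overlap. PKLR, the pyruvate kinase of liver and red cells, was lower with rhDKK1 (-0.43, adjusted p = 0.0316) and in the mean (-0.31, adjusted p = 0.0274). PKLR was dim, with log2 values from 4.95 on rhDKK1 array 1 to 5.52 on untreated array 2. GAPDH had a mean change of -0.03. With OB SostKO 0 genes of the 3 lists passed. The medians of the 3 lists in the mean of the co-cultures were -0.01, 0.01 and -0.03, against -0.00 over all genes.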

How the data were processed

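The fits used limma 3.58.1 under R 4.3.3. Deposited values were log2 signals from RMA, run by the authors per the submitters' processing notes: a background correction, quantile normalization between arrays and a summary for each probe set; the software and its version are not given in the sources used here. Array medians lay between 5.45 and 5.52. The filter asked a probe set to lie at or above its array's 40th percentile on 2 or more arrays, which 33970 of 54675 did, not counting 62 controls. Symbols come from the platform's annotation, updated to RefSeq names for GRCh38.p14. The kept probe set with 1 symbol and the highest mean stood for its gene. All 9 arrays entered a model of 4 group means (lmFit, eBayes, median 8.66 degrees of freedom), and p-values were adjusted over 14863 genes (Benjamini-Hochberg). Arrays of a group are labelled as biological replicates, and their number limits the precision. The members and lists were chosen with earlier results of these data known. Named in full are the members that passed against untreated PC3, pathway landmarks, PDK3 and, in each direct comparison, the 2 with the smallest p; further members are named to account for all 39. Levels were compared between arrays, not between probe sets. Promoter sequences are from RefSeq. The procedure was tested on simulated data. The alternatives were other filters, centring, cyclic loess, other uses of probe sets, only the groups compared, a replicate block, array weights, a trended robust prior, leaving out each array, other thresholds, and the tests that the methods name (ANOVA followed by Tukey, paired t-test).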

Additional observations from a re-analysis of the deposited data

How the results depend on the processing

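No fold change of a named member turned its sign while it or the alternative passed the test. The number of changed members, 2 with OB SostKO, 1 with rhDKK1, 2 with rhSOST and 5 for the mean of the co-cultures, moved as follows. With OB SostKO it was 1 with no filter (2.2% of all genes), arrays centred on their medians (3.14%) or any kept probe set (2.98%). It was also 1 with the replicate block (2.33%) and with array weights (2.26%). It was 3 with the 60th percentile filter (5.89%), cyclic loess (4.2%) or a trended robust prior (5.19%), and VEGFA joined in each. In the fits other than cyclic loess PFKFB3 also passed. SLC2A3 was not tested under the 60th percentile filter, which its probe set did not reach, and did not pass with the trended robust prior. With rhDKK1 it was 2 with the 60th percentile filter (6.46% of all genes) and with centring (4.09%). It was also 2 with the mean of the kept probe sets (3.07%), 4 with array weights (8.57%) and 3 with a trended robust prior (5.97%). With rhSOST it was 4 with the mean of the kept probe sets or any kept probe set and 5 with array weights. With only the 2 groups compared, where fewer arrays enter the fit, it was 0 with OB SostKO and 0 with rhDKK1. There 0% and 0.39% of all genes passed. An adjusted p under 0.10 gave 4, 4, 6 and 8 (7.97%, 9.1%, 12.1% and 17.4% of all genes). An unadjusted p under 0.05, chosen after seeing the data, gave 8, 8, 8 and 10 (20.7%, 21.3%, 23.6% and 27.2% of all genes), and 1 for OB SostKO against rhSOST. With a 2-fold change added it gave 0, 0, 0 and 0 (0.276%, 0.323%, 0.269% and 0.242% of all genes). At any kept probe set it gave 2 with rhDKK1 (1.13%), 0 with rhSOST (0.599%) and 2 for the mean (0.881%). This rule was also chosen after seeing the data. The methods' ANOVA with Tukey's comparisons gave 6, 4 and 5 at an unadjusted p under 0.05 (9.22%, 9.61% and 11.2% of all genes). It gave 1 for OB SostKO against rhSOST, for which the share of all genes is not given here. After Benjamini-Hochberg it gave 0, 0 and 0, where 0.00673%, 0.00673% and 0.0606% of all genes passed. The methods' paired t-test gave 5, 6 and 7 unadjusted (8.26%, 8.23% and 8.61% of all genes). It gave 2 for OB SostKO against rhSOST and 2 for rhDKK1 against rhSOST, for which the shares of all genes are not given here. After Benjamini-Hochberg it gave 0, 0 and 0, where 0%, 0% and 0.0135% of all genes passed. The paired test used replicates 1 and 2 and left out rhSOST array 3. Leaving out each array in turn gave 0 to 4 with OB SostKO, 0 to 2 with rhDKK1, 1 to 3 with rhSOST and 1 to 6 for the mean. The lowest counts came without an untreated array, where ADM alone passed with rhSOST and in the mean, and with rhDKK1 also without an rhDKK1 array. With the mean of a gene's probe sets, ANGPTL4 and PDK3 also passed in the mean of the co-cultures.

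Whether replicate numbers pair the arrays could not be decided. The deviations of same-numbered arrays correlated between -0.57 and 0.31, with both signs. Between groups of 2 arrays the deviations mirror each other, so the value for replicate 2 repeats that for replicate 1. With the replicate block the counts were 1 with OB SostKO, 1 with rhDKK1, 3 with rhSOST and 5 for the mean. In the same order, 2.33%, 2.73%, 3.28% and 8.98% of all genes passed. SLC2A3 then did not pass with OB SostKO (adjusted p = 0.0751), and in the mean PFKFB3 did not pass (adjusted p = 0.0527) and ENO2 did (adjusted p = 0.0389). Single-group fits, ANOVA and paired tests were not run for the mean of the co-cultures. A group left with 1 array is assumed to vary like the others, and for PKM, with its interval from -1.29 to 0.44 with OB SostKO, the number of arrays limits what could be detected. The cause of each move was not tested.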
